A study of Mus musculus with 26 samples.

Results

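Control spheroids of mouse motor neurons were described from 5 of the 6 RNA-seq libraries labelled as biochemical controls, in a series of 26 libraries. The members were control replicates 1, 2, 3, 5 and 6. Control replicate 4 was set aside because its counts on protein-coding genes came to 272212, under the limit of 1000000, and it enters only as an alternative. The cells derive from the embryonic stem cell line HBG3, in which the promoter of HB9, the protein of Mnx1, drives green fluorescent protein. The stem cells were expanded on a feeder layer with LIF, then differentiated with retinoic acid and purmorphamine. The neurotrophic factors CNTF and GDNF followed at day 5, and aggregates were seeded on fibrin at about day 8.

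All groups share this line and this protocol. The other groups used here are spheroids labelled low intensity (5 libraries) and high intensity (4 libraries), spheroids on a static magnetic silicone array (3 libraries) and spheroids on an array actuated at 4 Hz for 30 min a day (4 libraries), counting libraries with at least 1000000 protein-coding counts. The study's text describes medium conditioned by optogenetic muscle, stimulated or not, without pairing it with the 2 intensity labels. What medium the controls received is not stated in the sources used here. The spheroids were not sorted on the reporter, as far as the labels say, so each library is a whole aggregate. Nothing states that replicates came from separate differentiations, so spread and p-values measure only the difference between these samples.

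Retinoic acid gives neural progenitors a hindbrain and spinal cord identity, and purmorphamine, an agonist of Smoothened, activates the sonic hedgehog pathway that specifies ventral progenitors. Olig2-positive progenitors leave the cell cycle and switch on Mnx1, Isl1 and Lhx3, the transcription factors of early motor neurons, before the genes of acetylcholine synthesis and transport. Such cultures are known to hold other neural cells beside motor neurons. In a bulk library, fewer cells of a type and less RNA per cell cannot be told apart.

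The control libraries were rich in small structural RNAs. Levels are given as TPM (transcripts per 1000000), deposited values that are corrected for transcript length and sum to 1000000 in each library. The 2 genes of 7SL RNA, the scaffold of the signal recognition particle, together took 61.0%, 34.1%, 27.8%, 33.8% and 39.4% of TPM in control replicates 1, 2, 3, 5 and 6. Control replicate 1 was the highest, and none of these libraries was under 27.8%. Because 7SL RNA is short, the same reads were only 9.68%, 5.41%, 3.41%, 2.88% and 5.13% of the counts in these libraries.

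Length and identical copies shape the values of the abundant structural RNAs. The transcripts of Rn7s1 and Rn7s2 are 300 bases each in the GENCODE annotation and are identical, with 0 mismatches. Bc1 (GRCm38 chr7:144914470-144914637, plus strand) is a dendritic noncoding RNA of rodent neurons, and its sequence is shown as the neuronal member of these short RNAs. The capitals mark the A-rich stretch from position 77 to 136, the longest window with at least 80% A, which holds 49 A among 60 bases.
Bc1: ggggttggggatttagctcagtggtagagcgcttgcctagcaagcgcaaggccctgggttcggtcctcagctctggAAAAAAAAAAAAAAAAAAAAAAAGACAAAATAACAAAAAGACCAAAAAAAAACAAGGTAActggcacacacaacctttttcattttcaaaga

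By biotype, misc_RNA, which includes 7SL and Rn7sk, took 41.6% ± 12.7 (SD, n = 5) of control TPM. Protein-coding genes took 37.3% ± 8.20, from 24.1% in control replicate 1 to 44.5% in control replicate 3, but 76.5% ± 2.14 of the counts. The 2 mitochondrial rRNAs took 9.79% ± 2.93 of TPM, lncRNAs 3.24% ± 1.02, snRNAs 2.91% ± 2.09 and nuclear rRNA genes 1.24% ± 0.553. Levels are also given as coding TPM, in which the protein-coding genes alone are scaled to sum to 1000000. That scale moved the median coefficient of variation (CV, SD over mean) from 0.292 to 0.189 for the 599 protein-coding genes of 100 TPM or more, but only from 0.556 to 0.536 for the 6120 of 1 to 10 TPM.

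**Figure D1:**
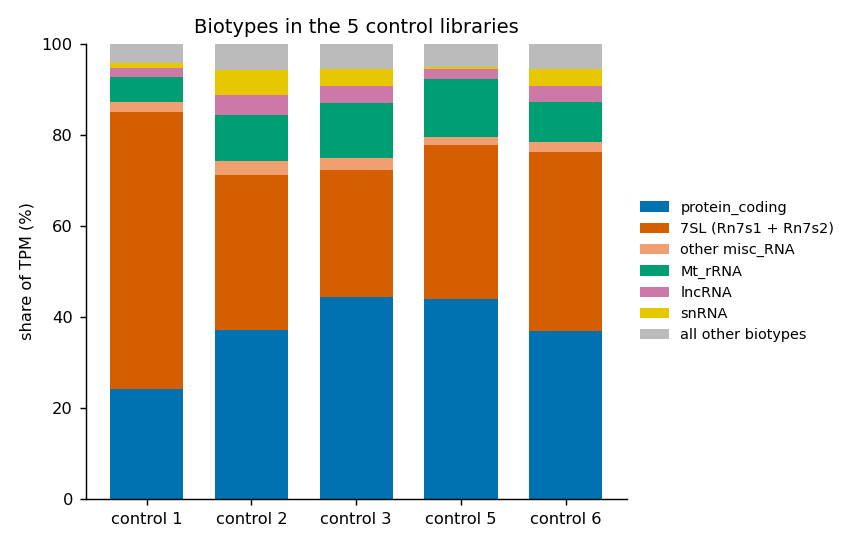
Stacked bars give each biotype's share of TPM (%) in control replicates 1, 2, 3, 5 and 6, with the 7SL genes drawn apart from other misc_RNA. The 7SL share is 61.0% in control replicate 1 and 27.8% to 39.4% in the other 4, and the protein-coding share is lowest, at 24.1%, where 7SL is highest.

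Among RNAs that encode no protein, Rn7s1 and Rn7s2 were followed by the mitochondrial rRNAs mt-Rnr2 (53835 ± 16258 TPM, SD, n = 5) and mt-Rnr1 (44032 ± 13247 TPM). Rn7sk, a regulator of transcription elongation, was at 20889.9, 27886, 25005, 18398 and 20411 TPM in control replicates 1, 2, 3, 5 and 6. Bc1 was at 11429, 31711, 23809, 5683 and 24514 TPM in the same order. Rn7sk thus stayed within a narrow band, while Bc1 was lowest in control replicate 5 and highest in control replicate 2. Rpph1, the RNA of ribonuclease P, was highest in control replicate 1 (16139 TPM) and lowest in control replicate 3 (5377 TPM). Rn18s-rs5, an 18S rRNA copy, was at 6452 ± 3142 TPM, and the snRNA genes Gm24305 and Gm22317 at 5328 ± 2951 and 4998 ± 3478 TPM.

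Expression of protein-coding genes was broad. Of 21606 protein-coding genes, 9988 (46.2%) were at 1 TPM or more in all 5 controls, 599 had a mean of at least 100 TPM, and 4449 had 0 counts in every one of the 5. The 20 highest genes held 10.8% ± 1.23 of coding TPM, the 100 highest 24.1% ± 1.47 and the 1000 highest 56.6% ± 1.66. Of the 20 highest, as reads were assigned, 6 are encoded by the mitochondrial genome and 6 encode cytosolic ribosomal proteins.

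As reads were assigned, the highest protein-coding gene was mt-Co1, a subunit of cytochrome oxidase. It was at 1927, 5102, 7204, 6430 and 2990 TPM in control replicates 1, 2, 3, 5 and 6. Calm2, a calmodulin gene, was next at 2516, 3839, 4322, 5828 and 3685 TPM. Among the next were mt-Atp8 (3584 ± 1649 TPM), mt-Cytb (2640.3 ± 1167), mt-Nd5 (2431 ± 1128), the 14-3-3 gene Ywhae (2393 ± 739.6) and the chaperone gene Hsp90aa1 (2131 ± 686). Control replicate 1 was lowest for mt-Co1 and Calm2, as it was for the protein-coding share as a whole. On coding TPM, the CV of Calm2 was 0.13 and that of mt-Co1 was 0.32. The 13 mitochondrially encoded genes together held 5.13% ± 1.23 of coding TPM and 82 cytosolic ribosomal protein genes 8.52% ± 0.686. Tubulins held 0.738% ± 0.126, the 5 neuronal intermediate filament genes 0.518% ± 0.0320 and replication-dependent core histones, summed with linker histones, 0.399% ± 0.0531. The mitochondrial values leave out reads assigned to identical nuclear copies of some of these genes. With its copy Gm10925, mt-Atp6 summed to 2275, 6489, 7840, 6001 and 3248 TPM in control replicates 1, 2, 3, 5 and 6. That sum was above mt-Co1 in all but control replicate 5, so the order of the mitochondrial genes depends on the assignment.

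The 5 genes that mark these spheroids fell into 2 ranges. The general neuronal genes were high: Tubb3, a neuronal tubulin, was at 163, 193, 311, 324 and 331 TPM in control replicates 1, 2, 3, 5 and 6, the 172nd highest protein-coding gene. Map2, a dendritic microtubule protein, was at 266, 220, 305, 515 and 387 TPM, at rank 120. The motor neuron genes were far lower. Mnx1, which drives the reporter of this line, was at 2.83, 3.93, 2.23, 2.93 and 3.74 TPM, at rank 10247. Isl1, a LIM homeobox factor that motor neurons share with sensory neurons, was at 2.89, 4.18, 2.69, 11 and 5.26 TPM, at rank 8751. Chat, the enzyme that makes acetylcholine, was at 10.9, 3.9, 8.7, 2.76 and 2.0 TPM, at rank 8499.

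All 5 markers had counts in every control library. Mnx1 rested on 13 to 37 counts per library, Isl1 on 20 to 60 and Chat on 17 to 45, against 1257 to 2204 for Tubb3 and 3454 to 5480 for Map2. On TPM, Isl1 was highest in control replicate 5 and Chat in control replicate 1, so these 2 genes did not rank the libraries alike on that scale. On counts scaled for library size, Chat was instead highest in control replicate 3, followed by control replicate 2. The order of the libraries for Chat thus depended on the scale. The label of a motor neuron spheroid thus matched detected, but low, motor neuron genes within a strongly neuronal library.

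**Figure D2:**
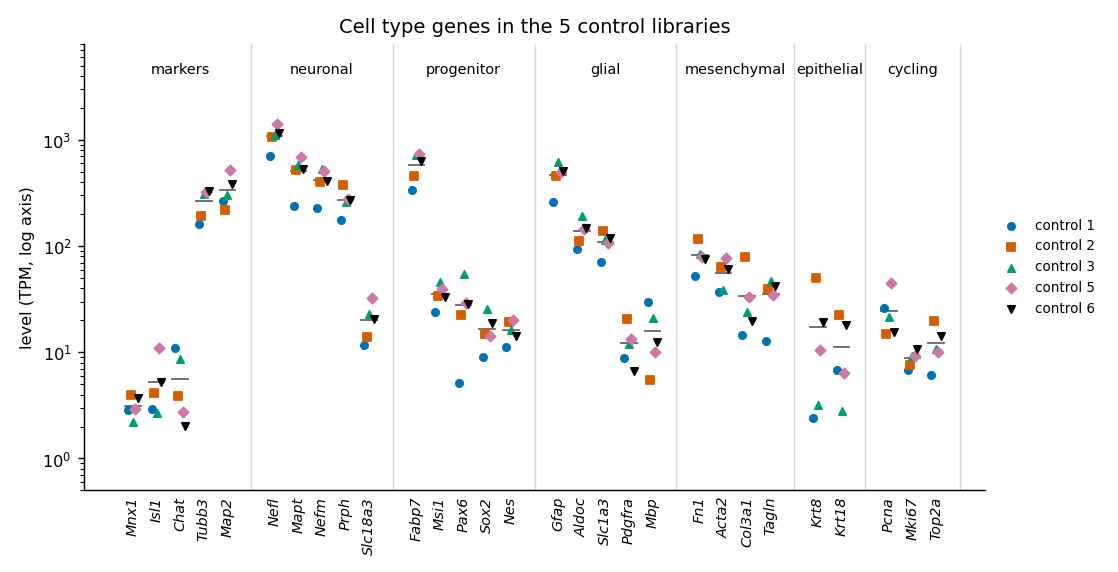
Each point is a gene's level (TPM, log axis) in 1 control library, with a bar at the mean, grouped into markers, neuronal, progenitor, glial, mesenchymal, epithelial and cycling genes. Tubb3 and Map2 lie between 163 and 515 TPM while Mnx1, Isl1 and Chat lie between 2.0 and 11 TPM, and Krt8 spreads from 2.38 to 50.3 TPM.

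The list of motor neuron transcription factors was only partly expressed. Of 12 members, 6 were at 1 TPM or more in all 5 controls. Foxp1, a factor of limb-innervating motor neurons that other cells also use, was the highest at 28.4, 45.0, 54.2, 60.2 and 45.0 TPM, and Hoxa5 was at 21.4 ± 4.42 TPM (SD, n = 5). Lhx1 varied from 0.633 to 11.5 TPM. Where a gene had 0 counts in all 5 libraries, the limit this allows is 3 counts, or 0.795 to 1.32 CPM (counts per 1000000). That limit covers counting error only.

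As a list, genes for the work of a motor neuron were more abundant than its transcription factors, with a median member at 20.9 against 2.87 TPM. Of 12 cholinergic and effector genes, 11 were at 1 TPM or more in all 5 controls. Prph, the intermediate filament peripherin of neurons that project outside the central nervous system, was at 176, 372, 262, 276 and 272 TPM. Gfra1, a receptor for the added factor GDNF, was at 45.0 ± 18.4 TPM, Nrg1, a growth factor for Schwann cells and muscle spindles, at 30.5 ± 13.1 TPM, and the guidance cue Slit2 at 25.7 ± 9.54 TPM. Slc18a3, the vesicular acetylcholine transporter, was at 11.7, 14.0, 22.8, 32.2 and 20.5 TPM (named here outside the naming rule because its gene lies within an intron of Chat). On TPM it was above Chat in all 5 libraries, by the least in control replicate 1. Slc5a7, the choline transporter, was at 4.99 ± 1.89 TPM. On average, Chat and Slc5a7 lay below the transcription factor genes Foxp1 and Hoxa5.

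The pan-neuronal list was the highest of the 18 lists, with all 18 members at 10 TPM or more on average and at 1 TPM or more in all 5 controls. Nefl, the light neurofilament, was at 703, 1060, 1113, 1403 and 1152 TPM, the 22nd highest protein-coding gene. Mapt, the microtubule protein tau, was at 508 ± 165 TPM and Nefm, the medium neurofilament, at 417 ± 120 TPM. The list summed to 10900 ± 781 coding TPM (SD, n = 5), a CV of 0.0716 for the sum. Single members spread more: the synaptic vesicle gene Syp ranged from 189 to 374 CPM and Dcx, a microtubule protein of young neurons, from 248 to 425 CPM over the 5 controls (both named after their values were seen). Elavl4, an RNA-binding protein of early neurons, was at 39.5 TPM in control replicate 1 and 29.4 to 31.8 TPM in the other 4.

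Genes of other transmitters were also present. Slc17a6, the glutamate transporter of spinal excitatory neurons, was at 23.5, 11.9, 27.6, 22.9 and 14.4 TPM. Slc32a1, the transporter that loads GABA and glycine into vesicles, was at 10.3, 12.9, 18.9, 17.8 and 24.0 TPM, and Gad1, a GABA-making enzyme, at 9.52 ± 4.66 TPM. Slc6a5, the neuronal glycine transporter, was at 9.69 ± 3.13 TPM. The means of Slc17a6 and Slc32a1 (20.1 and 16.8 TPM) lay beside that of the vesicular transporter Slc18a3 (20.2 TPM), within the spread between libraries. Th and Tph2, the enzymes that define dopamine and serotonin neurons, had 0 counts in all 5. Among 12 interneuron factors, 2 were at 1 TPM or more in all 5 controls, and Pax2 and En1 were at 2.97 ± 1.34 and 2.61 ± 0.915 TPM. Gata3 was at 31.9 TPM in control replicate 3 and 0.147 to 4.16 TPM in the other 4, although its counts there were 20 against 3 to 28.

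Progenitor genes were expressed beside the neuronal ones. Fabp7, the brain lipid-binding protein of radial glia, was at 338, 455, 728, 737 and 630 TPM, the 58th highest protein-coding gene. Msi1, an RNA-binding protein of neural stem cells, was at 35.1 ± 8.14 TPM, Sox2 at 16.5 ± 6.15 TPM and the intermediate filament Nes at 16.2 ± 3.56 TPM. Pax6, a homeobox factor of neural progenitors, ranged from 5.10 TPM in control replicate 1 to 54.7 TPM in control replicate 3. On counts the range was narrower, from 18.1 to 49.6 CPM in the same libraries. Of 18 progenitor genes, 9 were at 1 TPM or more in all 5 controls, and Fabp7 alone made up most of the list's sum of 709 ± 206 TPM.

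Of 8 floor plate genes, 5 reached 1 TPM in all 5 controls. Spon1, which encodes F-spondin, was the highest at 17.7, 21.7, 29.0, 27.9 and 25.2 TPM. Ntn1, the axon guidance cue netrin-1, was at 14.6 ± 9.48 TPM and Slit1 at 12.6 ± 7.95 TPM. Ntn1 ranged from 5.48 TPM in control replicate 2 to 30.7 TPM in control replicate 6. Cycling genes were low: Pcna was at 24.5 ± 12.3 TPM, Top2a at 12.1 ± 5.13 TPM, Cdk1 at 10.1 ± 10.5 TPM and Mki67 at 8.74 ± 1.52 TPM. Mki67 spread least of these, from 6.86 to 10.7 TPM.

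Glial genes were among the most abundant of all lists. Gfap, the intermediate filament of astrocytes, was at 260, 460, 624, 494 and 515 TPM, the 77th highest protein-coding gene. Aldoc, a glycolytic enzyme of astrocytes, was at 138 ± 37.7 TPM, the glutamate transporter Slc1a3 at 110 ± 24.5 TPM and glutamine synthetase, Glul, at 56.2 ± 18.6 TPM. Of 10 astrocyte and radial glia genes, 9 were at 1 TPM or more in all 5 controls, and the list summed to 2459 ± 210.1 coding TPM, above the 1280 ± 68.8 of the cholinergic and effector list. Lists differ in their members, so such sums order the lists used here and not the cells. Oligodendrocyte genes were lower. Mbp, a myelin protein, was at 29.5, 5.49, 21.2, 10.1 and 12.5 TPM, and Pdgfra, a receptor of oligodendrocyte precursors and of mesenchyme, was at 12.3 ± 5.28 TPM. Cnp was at 10.2 ± 4.55 TPM, while the late myelin gene Mog had 0 counts in all 5.

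Mesenchymal genes were present in every control. Fn1, which encodes fibronectin, was at 52.0, 117, 84.0, 78.9 and 75.9 TPM. The smooth muscle genes Acta2 and Tagln were at 55.6 ± 17.6 and 35.1 ± 13.2 TPM, and Col3a1, a fibrillar collagen, was at 14.4, 78.2, 23.8, 33 and 19.8 TPM. Control replicate 2 was the highest for Fn1 and Col3a1. The 14 genes summed to 766 ± 172 coding TPM, with 1069 in control replicate 2 and 646 to 718 in the other 4, and S100a4 had 0 counts in all 5. Epithelial keratins varied more. Krt8 was at 2.38, 50.3, 3.18, 10.5 and 19.3 TPM, and Krt18, its partner, was at 6.84, 22.5, 2.77, 6.34 and 18.2 TPM. Both were again highest in control replicate 2 and were lower in control replicate 3 than in control replicates 5 and 6.

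Lists for cells outside the neural and mesenchymal lineages were low, though not all at the floor. Pluripotency genes summed to 5.13 ± 4.49 TPM, mostly Esrrb (2.83 ± 2.12 TPM), and to 3.30 TPM without control replicate 5, while Nanog, Dppa5a and Utf1 had 0 counts in all 5. Endoderm genes summed to 0.625 ± 0.293 TPM, with Sox17, Alb and Apoa1 at 0 counts. Endothelial genes summed to 3.16 ± 1.93 TPM, with Cldn5 at 0 counts. Microglia and blood genes summed to 4.25 ± 4.02 TPM. Csf1r, a receptor of microglia, was most of that sum, at 0.0402, 7.27, 0, 6.98 and 3.87 TPM, while Aif1 and the globin genes Hbb-bs, Hba-a1 and Hba-a2 had 0 counts. Skeletal muscle genes summed to 8.72 ± 8.21 TPM, mostly Des, and to 5.16 TPM without control replicate 5, where Des had 138 counts. Myod1, Myog, Tnnt3 and Mymk had 0 counts. In all, 21 of 189 list members had 0 counts in the 5 controls.

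**Figure D3:**
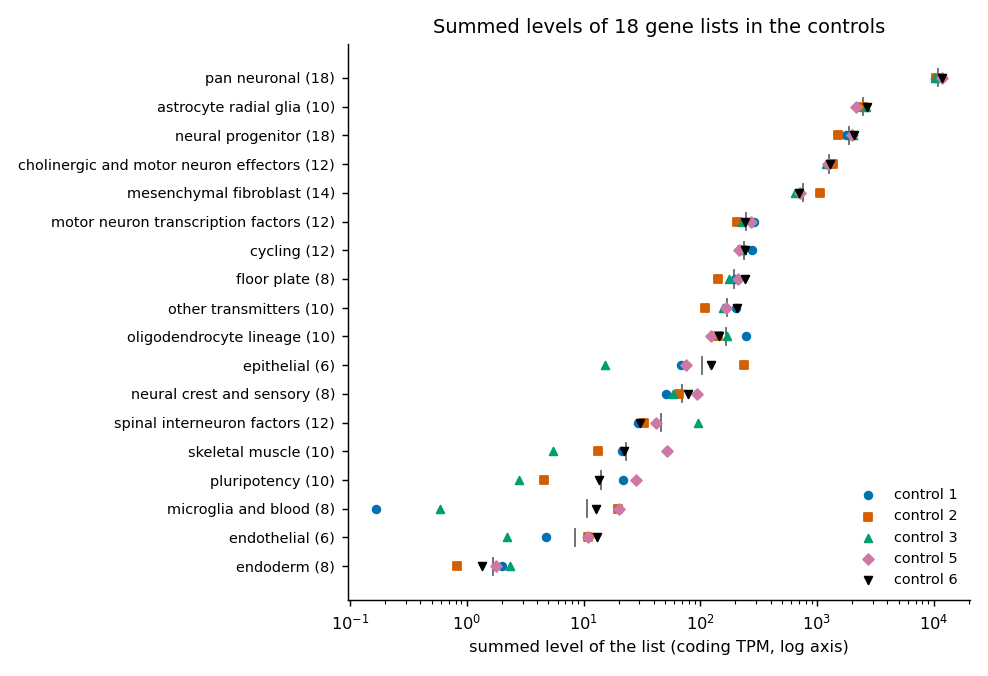
Each row is a gene list with its number of members, and each point is the list's summed level (coding TPM, log axis) in 1 control library, with a bar at the mean. The pan-neuronal sums lie together near 10900, the epithelial sums spread from 15.1 to 237, and the endoderm sums lie at 2.36 or less.

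Hox genes, whose paralog groups mark position along the body axis, were expressed up to group 9. Of 39 Hox genes, 21 were at 1 TPM or more in all 5 controls. These were 13 of the 15 genes of groups 1 to 5 and 8 of the 12 of groups 6 to 9. Hoxb8 was the highest at 75.7, 146, 138, 126 and 130.3 TPM, and the highest members of groups 7, 6 and 9 were Hoxb7 (58.3 ± 17.1 TPM), Hoxb6 (25.8 ± 4.10) and Hoxb9 (23.5 ± 6.92). The 12 genes of groups 10 to 13, which mark lumbar to caudal levels, had means of at most 0.484 TPM, and 3 of them had 0 counts. Hox genes as a family held 0.111% ± 0.00391 of coding TPM, from 0.108% to 0.117%. Within the family, Hoxb3 was at 33.4 TPM in control replicate 3 and 2.58 to 8.68 TPM in the other 4.

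Several genes with the widest spread have an identical copy elsewhere in the genome. mt-Co2, a cytochrome oxidase subunit of the mitochondrial genome, had 0, 1305, 371, 0 and 351 counts in control replicates 1, 2, 3, 5 and 6. Its nuclear pseudogene Gm28661, which is identical over its 681 bases, had 2986, 2162, 3137, 2879 and 2796. As a pair they held 1033 ± 202 CPM, a CV of 0.195, against 1.30 for mt-Co2 alone. Reads from such copies cannot be told apart, and the division between them differed by library. The same held for mt-Co3 with Gm28437 (CV 1.03 alone, 0.122 summed), for mt-Nd4l with Gm10222 (1.29 and 0.20) and for mt-Atp6 with Gm10925 (1.05 and 0.391). Rn7s1 and Rn7s2 were divided as unevenly. Rn7s1 took 27.6% of the pair's counts in control replicate 1 and up to 95.8% in control replicate 2. Unlike the mitochondrial pairs, their sum spread more than the first gene alone, with a CV of 0.505 against 0.330.

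**Figure D4:**
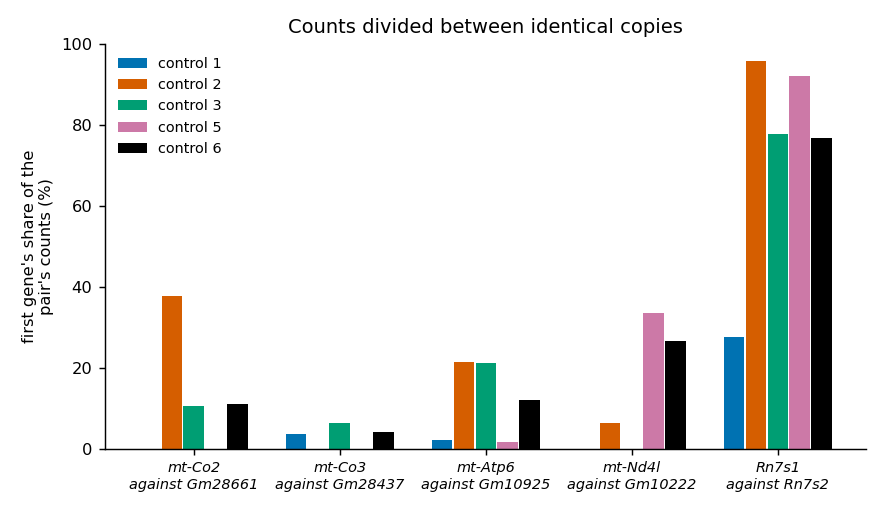
Bars give, for 5 pairs of identical copies, the share of the pair's counts (%) on the first gene in each control library, on an axis from 0 to 100%. The share runs from 0 to 37.6% for mt-Co2 and from 27.6% to 95.8% for Rn7s1.

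The 2 deposited tables did not always give the same picture of a gene. Sik3, a kinase gene, was at 111, 16.5, 25.2, 16.6 and 18.4 TPM in control replicates 1, 2, 3, 5 and 6. Its counts were 355, 284, 319, 198 and 335, and the CV was 0.11 on normalised counts. The high TPM of control replicate 1 thus had no counterpart in its counts. Mras, a small GTPase, was at 108 TPM in control replicate 2 and 12.1 to 26.8 TPM in the other 4, with a CV of 0.22 on normalised counts, and Plcl1 at 74.2 TPM in control replicate 3 and 5.85 to 13.8 in the other 4, with a CV of 0.30. By contrast H2ac19, a histone gene, had 0, 300, 206, 0 and 0 counts and 0, 205, 198, 0 and 0 TPM. Both tables thus assigned its reads to control replicates 2 and 3 alone. Whether H2ac19 has an identical copy was not checked, so expression and the division of reads cannot be told apart here. Among genes of at least 20 TPM on average, the steadiest on TPM were Cdk4 (42.0 ± 2.65 TPM), Anapc16 (22.5 ± 1.47), Smdt1 (36.8 ± 2.45) and Cask (85.1 ± 5.78). On normalised counts their CVs were 0.27, 0.21, 0.22 and 0.09, so of these 4 only Cask stayed under 0.2.

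Spread between the controls depended on level. On CPM scaled by the trimmed mean of M-values (TMM), the median CV was 0.442 for 6120 protein-coding genes of 1 to 10 TPM, 0.213 for 5712 of 10 to 100 TPM and 0.157 for 599 of 100 TPM or more. Counting error alone would give medians of 0.177, 0.0776 and 0.0358. The biological coefficient of variation, edgeR's estimate of spread beyond counting error, was 0.274 over 10220 genes. It was 0.221 at low intensity, 0.229 at high intensity, 0.186 on static and 0.168 on actuated arrays, while totals were 2273487 to 3771637 counts for controls and 7269276 to 13162635 for arrays, and the number of genes fitted differed. No test of these differences was made.

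The controls were alike in how they ranked genes. Over 12431 protein-coding genes, Spearman's rho between pairs of controls was 0.812 to 0.892, as a description. Control replicate 2 had the lowest mean rho with the others (0.822) and control replicate 6 the highest (0.876). The biological coefficient of variation was 0.242 without control replicate 2 and 0.298 without control replicate 6. The chi-square statistic per degree of freedom was 8.84 to 41.7 over the 10 pairs, so no 2 controls were the same library.

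Set beside low-intensity spheroids, the controls had a higher share of 7SL RNA. The 7SL share of TPM was 27.8% to 61.0% in the 5 controls and 11.9% to 19.9% in the 5 low-intensity libraries, without overlap (difference −23.7 percentage points, exact two-sided permutation p = 0.00794, 0.0238 adjusted over 3 comparisons). Control replicate 4, set aside for its depth, had 16.9%, within the low-intensity range. With all 26 libraries the low-intensity difference was −22.4 points (adjusted exact permutation p 0.0195). The 7SL share was 22.3% ± 11.8 (n = 4) at high intensity and 25.6% ± 5.68 (n = 3) on static arrays. The exact permutation p was 0.0794 and 0.0714, each 0.0794 when adjusted. Those 2 groups overlapped with the controls. The high-intensity difference was −19.7 points without control replicate 3 (adjusted exact permutation p 0.0429) and −9.48 points with all 26 libraries (0.279), and on shares of counts its adjusted exact permutation p was 0.143. The static-array difference of −13.7 points was −8.22 points without control replicate 1. This test was chosen after the values were seen.

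Values in TPM share a fixed sum, so a gene's TPM also depends on the 7SL share, and most genes were higher than in the controls on that scale. Across 14730 genes fitted, the median difference in log2(TPM + 1) from the controls was 0.64 at low intensity, 0.53 at high intensity and 0.50 on static arrays, while the median log2 fold change in edgeR was −0.01, 0.00 and 0.00. On log2(TPM + 1), limma called 5440 genes at low intensity, 5423 of them higher. On counts, edgeR's quasi-likelihood test called 88 genes (0.597%), 65 of them higher. At high intensity it called 68 (0.462%), 45 higher, and on static arrays 105 (0.713%), 44 higher, while limma on log2(TPM + 1) called 2324 (2315 higher) and 1091 (1087 higher). The comparisons below are on counts, and all 3 share the same 5 controls.

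These counts of genes turned on single libraries. The low-intensity count was 2, 15 and 19 without low-intensity replicates 1, 2 and 5, and 264 without replicate 3. It was 40, 39, 54, 41 and 148 without control replicates 1, 2, 3, 5 and 6, and 221, 41, 43, 53 and 47 without high-intensity replicate 3, actuated-array replicates 1 and 4 and static-array replicates 1 and 2. The high-intensity count was 0, 1, 0 and 397 without high-intensity replicates 1, 2, 3 and 6. It was 18, 2, 2 and 125 without control replicates 2, 3, 5 and 6, and 107, 0, 17, 16, 0 and 1 without low-intensity replicate 3, actuated-array replicates 1, 2 and 4 and static-array replicates 1 and 2. On static arrays, 27, 26 and 18 genes passed when library 1, 2 or 4 of that group was left out.

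Few genes of the marker lists passed the test, and the 5 markers of the spheroids did not. Of 137 list members fitted, 4 were called at low intensity (2.92%), 4 at high intensity (2.92%) and 3 on static arrays (2.19%), against the 0.597%, 0.462% and 0.713% of all genes above. By direction, 3 list members were higher and 1 lower at low intensity (0.441% and 0.156% of all genes), 4 were higher and none lower at high intensity (0.305% and 0.156%), and 1 was higher and 2 lower on static arrays (0.299% and 0.414%). Mnx1, Isl1, Chat, Tubb3 and Map2 had edgeR adjusted p of 0.246 or more in all 3 comparisons. Mnx1 was at 10.6, 10.9, 5.00, 6.55 and 8.69 CPM in control replicates 1, 2, 3, 5 and 6, and its log2 fold change was −0.51 (SE 0.46) at low intensity, −0.01 (SE 0.47) at high intensity and −0.29 (SE 0.50) on static arrays. With such standard errors a difference of that size was not detectable at this depth. The log2 fold change of Chat was −0.59 (SE 0.32) at low intensity, −0.23 (SE 0.33) at high intensity and −0.885 (SE 0.36) on static arrays. On coding TPM, the log2 difference of Isl1 was −0.45, −0.58 and −1.50 in the same order. The motor neuron markers were thus not called, but not shown to be unchanged. As a list, the motor neuron transcription factors summed to 232 to 255 CPM on static arrays, against 259 to 365 CPM in the controls. The cholinergic and effector list summed to 1135 to 1294 CPM, against 1320 to 1472 CPM. Neither overlapped with the controls there, with fold changes positive in 4 of 10 and 3 of 12 members fitted. At both intensities both lists overlapped with the controls. These sums were not tested.

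Ntn1 was lower in the controls than in all 3 other groups. It was at 45.7, 17.2, 27.7, 23.4 and 47.5 CPM in control replicates 1, 2, 3, 5 and 6. It was at 58.2 to 80.9 CPM in the 5 low-intensity libraries, 54.8 to 77.8 CPM in the 4 high-intensity libraries and 70.6 to 92.1 CPM in the 3 static-array libraries, so no other library reached down to the highest control. Relative to controls it was higher by a log2 value of 1.07 (SE 0.21, adjusted p 0.0273 by edgeR) at low intensity, 0.98 (SE 0.22, adjusted p 0.0452) at high intensity and 1.37 (SE 0.23, adjusted p 0.00392) on static arrays. The static-array call held without each of the 8 libraries in turn (adjusted p up to 0.0460). The low-intensity call was lost without control replicate 3 or 5 or low-intensity replicate 1 or 2 (adjusted p 0.0502, 0.0576, 0.0879 and 0.0716). The high-intensity call was lost without control replicate 2, 3 or 5 or high-intensity replicate 1, 2 or 3 (0.0702, 0.0982, 0.0789, 0.0881, 0.109 and 0.159).

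The 12 cycling genes had higher means in the other groups. Their summed normalised count was 297, 224, 304, 245 and 324 CPM in control replicates 1, 2, 3, 5 and 6. It was 275 to 814 CPM at low intensity, 397 to 1220 CPM at high intensity and 391 to 583 CPM on static arrays, so only a low-intensity library lay within the range of the controls. All 12 fold changes were positive in each comparison, with median log2 values of 1.34, 1.31 and 0.89, where the median of all genes was −0.01, 0.00 and 0.00. On coding TPM, 11 of 12 were positive at low intensity and on static arrays.

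Of these, Top2a, a topoisomerase of dividing cells, passed the test at both intensities and Mki67, a proliferation marker, at high intensity. Top2a was at 58.4, 41.7, 65.4, 54.7 and 74.8 CPM in the controls, 75.3 to 209 CPM at low intensity and 92.8 to 272 CPM at high intensity. The fitted log2 difference came to 1.28 (SE 0.28, adjusted p 0.0372 by edgeR) and 1.30 (SE 0.29, adjusted p 0.0448). The low-intensity call was lost in 7 of 10 leave-outs, those of control replicates 1, 2, 3 and 5 and low-intensity replicates 1, 2 and 5 (adjusted p 0.0590 to 0.120), and the high-intensity call in 7 of 9, those of control replicates 1, 2, 3 and 5 and high-intensity replicates 1, 2 and 3 (adjusted p 0.0629 to 0.251). Mki67 was at 102 to 133 CPM in the controls and 174 to 500 CPM at high intensity, a fitted log2 difference of 1.31 (SE 0.26, adjusted p 0.0364 by edgeR). It no longer passed without control replicate 2, 3 or 5 or high-intensity replicate 1, 2 or 3 (adjusted p 0.0589 to 0.169). The mesenchymal list moved beside the cycling list: its sum was 932 to 1642 CPM in the controls, 774 to 5024 CPM at low intensity, 1481 to 3919 CPM at high intensity and 458 to 2198 CPM on static arrays. Its 14 members were all fitted, with positive fold changes in 13, 14 and 6 of 14, S100a4 being at 0 counts in the controls. The part of mesenchymal cells in these differences was not tested.

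**Figure D5:**
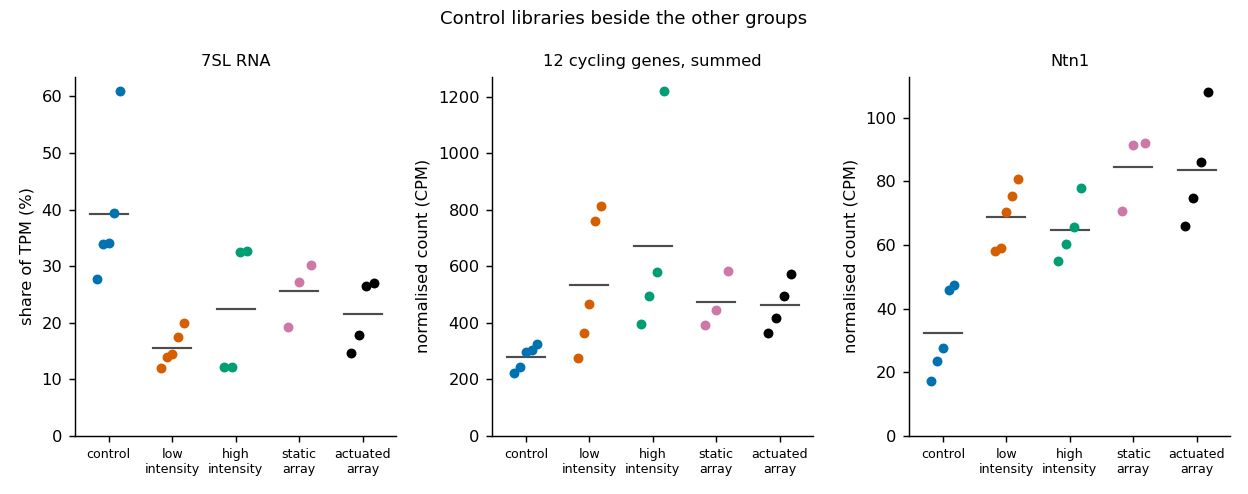
Points are libraries with at least 1000000 protein-coding counts in 5 groups, with a bar at each mean, for the 7SL share of TPM (%), the summed normalised count of 12 cycling genes (CPM) and Ntn1 (CPM), all on axes from 0. Controls have the highest mean 7SL share (39.2%) and the lowest Ntn1 (17.2 to 47.5 CPM), and their cycling sums lie between 224 and 324 CPM.

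Beside these differences, most pan-neuronal genes had negative fitted fold changes at both intensities. Their summed count was 12799 to 14698 CPM in the controls, 11320 to 14098 CPM at low intensity and 8603 to 13164 CPM at high intensity, which overlap. Of 18 members, 1 had a positive fold change at low intensity (median log2 −0.23) and 0 at high intensity (median −0.32). On coding TPM these were 2 and 0 of 18, whereas on log2(TPM + 1) the direction turned, with 17 and 16 of 18 positive. Elavl4 alone of the 18 passed the test, at low intensity.

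The other calls at the 2 intensities were Nes, Elavl4 and Cdh1. Nes was at 103 to 168 CPM in the controls and 117 to 601 CPM at low intensity, which overlap, and the fitted log2 difference was 1.43 (SE 0.33, adjusted p 0.0443 by edgeR). It was lost in 8 of 10 leave-outs, those of every control and of low-intensity replicates 1, 2 and 5 (adjusted p 0.0562 to 0.139). Elavl4 was at 112 to 175 CPM in the controls and 76.9 to 106 CPM at low intensity, without overlap. It fell by 0.59 on the log2 scale (SE 0.13, edgeR adjusted p 0.0370), and the call was lost without control replicate 1, 2 or 5 or low-intensity replicate 1, 2 or 5 (adjusted p 0.0520 to 0.120). Cdh1, the epithelial cadherin, had 6, 0, 1, 1 and 7 counts in the controls and was at 2.48 to 16.1 CPM at high intensity (log2 fold change 3.09, SE 0.66, edgeR adjusted p 0.0420). It was lost without control replicate 2, 3 or 5 or high-intensity replicate 1, 2 or 3 (adjusted p 0.0599 to 0.124).

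On static arrays Slc5a7 and Slit2 were lower than in the controls. Slc5a7 was at 24.7, 39.2, 36.9, 40.2 and 21.2 CPM in control replicates 1, 2, 3, 5 and 6 and at 12.4, 8.93 and 4.93 CPM on static arrays, without overlap. It fell by 1.88 on the log2 scale (SE 0.32, edgeR adjusted p 0.00392), and the call was lost without static-array replicate 4 (adjusted p 0.0562). Lower Slc5a7 was not particular to static arrays. At low intensity it was at 11.07 to 21.46 CPM, which overlaps with the controls. The log2 fold change there was −1.08 (SE 0.267), and it was not called (edgeR adjusted p 0.058). At high intensity it was −0.433 (SE 0.276, edgeR adjusted p 0.473). On actuated arrays Slc5a7 was at 10.99 to 15.79 CPM, below every control. Slit2 was at 78.2 to 134 CPM in the controls and 50.6 to 64.6 CPM on static arrays and fell by 0.88 (SE 0.20, edgeR adjusted p 0.0333). It was lost without control replicate 1 or 5 or any static-array library (adjusted p 0.0539 to 0.217). On coding TPM, Slit2 also had a negative log2 difference from the controls at low (−0.66) and high intensity (−0.76). Glial lists moved beside these genes. The oligodendrocyte list summed to 129 to 216 CPM in the controls and 299 to 664 CPM on static arrays, without overlap, and 9 of the 9 members fitted had a positive fold change (median log2 1.86, and 8 of 9 on coding TPM). The astrocyte and radial glia list summed to 2833 to 3619 CPM and 3942 to 4708 CPM, also without overlap, with 9 of 10 positive (median log2 0.36). The lowest edgeR adjusted p was 0.0579 for Sox10, a factor of the oligodendrocyte lineage, and 0.107 for Gfap. Lack of overlap on static arrays was not particular to the glial lists. The floor plate list (428 to 440 against 327 to 364 CPM), the endoderm list (2.48 to 5.77 against 1.40 to 2.32 CPM) and the cycling list also lay above every control. Both motor neuron lists lay below every control. The part of glial cells in the lower Slc5a7 and Slit2 was not tested. The static-array libraries held 7724923 to 13162635 counts, all more than any control, so the array and the depth cannot be told apart.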

How the data were processed

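RNA was sequenced from 26 libraries, made per the labels' protocols from 4 ng of total RNA (full volume for the 8 samples of lowest concentration, not identified) with removal of rRNA fragments, 5 and 15 PCR cycles and paired reads of 50 bases. The authors deposited estimated counts (expected counts, given as whole numbers) and TPM for 56941 genes. Per the submitters' processing notes the tools were STAR, Salmon, BWA 0.7.12-r1039 and bedtools 2.25.0, without their roles, and the notes name the builds mm10, hg19 and GRCm39. The build behind the tables, the annotation and strand use: not given in the sources used here. Values of overlapping and antisense genes and of near-identical copies are therefore uncertain. Biotypes came from the count table, since the biotype column of the TPM table matched it in only 25.3% of rows. Transcript sequences and coordinates came from GENCODE M21 on GRCm38.

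Groups followed the treatment label. The 5 controls held 2273487 to 3771637 counts and no 2 libraries were merged. Levels are deposited TPM. Differences were tested with edgeR 4.0.16 in R 4.3.3 on the counts of 21 libraries with at least 1000000 protein-coding counts, in 1 model with 5 groups (filterByExpr, 14730 genes, TMM, quasi-likelihood F-test, Benjamini-Hochberg at 0.05 over all genes). limma 3.58.1 and DESeq2 1.42.0 were alternatives. The members, the 18 lists and the tests were chosen with earlier results of these data known. Named genes were the 20 highest protein-coding and 10 highest other genes, the 4 highest members of each list and those with 0 counts, the 10 widest and 10 steadiest genes of 20 TPM or more, list members called, and Hox leaders. On simulated counts for low intensity against control (14328 genes fitted), 85.7% of genes raised 4-fold and 87.5% of genes lowered 4-fold were recovered. Same-numbered samples did not deviate together, so numbers were not used as pairs. Some list members and 1 sequence are not reported here.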

Additional observations from a re-analysis of the deposited data

Results flagged for a closer look

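Of 168 control values checked for a library far from the other 4 (Dixon's test, critical value 0.71), 22 stood out (13.1%). Chance gives about 1 in 20, but the values checked include the 10 genes named for the widest spread, so this share is not a measure of excess. On TPM, control replicate 1 was far above the others for Rn7s2 (441334 TPM against 15534 to 95559), Sik3 (111 against 16.5 to 25.2), Elavl4 (39.5 against 29.4 to 31.8) and Myf5 (1.11 against 0). Control replicate 2 was far above the others for Mras (108 TPM), Gm21972 (79.5), Gpr137b (78.3) and the endothelial receptor gene Kdr (2.34). Control replicate 3 was far above for Plcl1 (74.2 TPM), Zfp397 (66.9), Hoxb3 (33.4), Gata3 (31.9), Hoxb2 (17.2) and Ttr (0.634). For Hoxb2, the counts of control replicate 3 were also the highest, at 83 against 21 to 42.

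Control replicate 5 was far above the others for the muscle filament gene Des (20.7 TPM, with 138 counts against 22 to 70), for the summed skeletal muscle list (23.0), and for Epcam (4.75), Lin28a (3.74), Hoxc10 (2.01), P2ry12 (0.225) and Hoxd11 (0.134). Lin28a rested on 2 counts there, P2ry12 and Hoxd11 on 1 each. Control replicate 6 was far above for mt-Co3 (428 TPM), which has an identical nuclear copy.

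Control replicate 4, which enters levels only as an alternative, had 75.6% of its counts on Rn18s-rs5, against 0.658% to 2.21% in the 5 controls described. Its 7SL share of TPM was 16.9%.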

How the results depend on the processing

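Leaving out a control moved 2 of the 18 list sums by over 1.5 times, both without control replicate 5: skeletal muscle from 8.72 to 5.16 TPM and pluripotency from 5.13 to 3.30 TPM. Levels in TPM are relative to 7SL: on coding TPM every list sum was higher by over 1 SD. The protein-coding share was 37.3% of TPM and 76.5% of counts, and 35.5% to 40.6% with single controls left out. The number of genes at 1 TPM or more in all controls was 10382, 10438 to 10896 without single controls, and 6474 at 5 TPM. The biological coefficient of variation was 0.274, 0.618 without a low-count filter, 0.298 with control replicate 4, and 0.242 to 0.298 without single controls.

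The counts of genes called were 88, 68 and 105 at low intensity, at high intensity and on static arrays. They were 660, 700 and 459 without a low-count filter, 4, 6 and 2 with all 26 libraries, 21, 17 and 42 with only the 2 groups compared, 470, 467 and 381 in DESeq2, 5440, 2324 and 1091 in limma on log2(TPM + 1), and 5537, 2292 and 1145 on log2(TPM + 0.1). Voom with quality weights called 1, 0 and 151. At high intensity 2349 genes had an unadjusted edgeR p under 0.05. Single libraries left out gave 2 to 264, 0 to 397 and 18 to 141. Without them the 7SL difference was −26.6 to −18.3, −20.3 to −11.4 and −16.5 to −8.22 percentage points, and the high-intensity one passed the test without control replicate 3 (−19.7). Scaling by DESeq2 size factors and a filter of 1 CPM in 4 libraries kept each count within 1.5 times. The cause of these shifts was not tested.

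With the replicate number as a block the counts were 8, 2 and 36. The correlation of deviations between same-numbered libraries was −0.053 to 0.043, so the numbers are not shown to pair the samples. Depth limits the low genes: 3 counts were 0.795 to 1.32 CPM in the controls.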
